A study of Mus musculus with 6 samples.

Results

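Nrn1, Mpp2, Ankrd37, Selenbp1, Itpk1, Prelid2 and Sap30 are 7 genes of the 22880 in the deposited table. They were selected because their normalized counts were much lower in all 3 HIF-1α-KD libraries than in all 3 Mock libraries, and because none of them is known for a role in glycolysis or angiogenesis. The counts of these libraries chose the genes, so the decreases below are a description and carry no test. In the gene annotation deposited with the table, 0 of the 7 genes had the term response to hypoxia, which 79 of the 12014 tested genes had.

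The cells were MC-38GFP, a colon adenocarcinoma line of the mouse that carries green fluorescent protein (GFP). Both groups were transduced with the vector pLKO.1-puro and had not been passaged in vivo. The Mock cells carried the mock knockdown and the HIF-1α-KD cells the knockdown of HIF-1α. Orthotopic tumors grew from them in the cecum wall of mice, and living GFP+ cells negative for CD45 (leukocytes) and CD31 (endothelium) were sorted for RNA sequencing, in 3 libraries of each group. Both groups come from 1 cell line, and the labels do not say whether the libraries of a group are separate tumors, so the p-values below measure the spread between libraries, which may be technical.

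Hypoxia-inducible factor 1 (HIF-1) is a transcription factor made of an α subunit, which oxygen-dependent prolyl hydroxylases mark for destruction, and a β subunit that is always present. The prolyl hydroxylases thus serve as the oxygen sensors, and the short DNA motif that the factor recognizes is called the hypoxia response element. In tumors HIF-1 is best known for raising glucose uptake, glycolysis and the growth of vessels, but its targets also include regulators of chromatin, signaling enzymes and mitochondrial proteins.

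Between 19845808 and 30809373 reads per library lay on genes, and 12014 genes had enough reads to be tested, the 7 genes among them. With limma on log2 of the normalized count plus 1, 46 genes (0.383% of those tested) passed an adjusted p-value of 0.05 in the lower direction under the knockdown, and 1 gene passed in the higher direction. These counts were 187 and 96 with DESeq2 and 0 and 0 with the replicate block. The lower count was 0 without Mock 3 or HIF-1α-KD 2, and 2, 8 and 10 without Mock 1, HIF-1α-KD 3 and Mock 2. All 7 genes were among the 46, which follows from how they were picked. For 8.75% of the tested genes every HIF-1α-KD library lay below every Mock library. Markers of colon epithelium were low, and 4 of 12 had enough reads to be tested, with Epcam between 2.31 and 37.5, Cdx2 between 0 and 2.42 and Cdh1 between 26.4 and 94.2 normalized counts. Mock 3 stood apart for these markers, with 191 normalized counts of Krt8 and 121 of Krt19, which were at most 32.2 and 16.1 in the other libraries. The summed count of 17 leukocyte markers was 5190 to 5360 in Mock and 3330 to 15300 in HIF-1α-KD libraries, the highest in HIF-1α-KD 3. Lyz2 had 8877 normalized counts in HIF-1α-KD 3 against 1715 to 2615 in the other libraries, and Itgam had 1105 against 198 to 423. The granulocyte markers S100a8, S100a9 and Ly6g lay between 0 and 55.5, and Cd3e and Cd3g of T cells stayed under 3. That of 12 fibroblast and mural markers was 107000 to 231000 in Mock and 295000 to 433000 in HIF-1α-KD libraries, without overlap, and 5 of the 11 tested had a limma p-value under 0.05 in the higher direction with 0 at an adjusted p-value under 0.05. Col1a1 and Col3a1 made up most of that sum. The other 10 markers overlapped as a sum, at 31700 to 51600 in Mock and 25000 to 40000 under the knockdown. Dcn held much of it, with 20610 to 42580 in Mock and 15050 to 27140 under the knockdown. Dcn and Lum had log2 fold changes of -0.38 and -0.16, and all other tested markers of this list had positive ones. Among these, Cspg4 (1.42) and Rgs5 (1.15) did not overlap between groups, while Pdgfrb (0.59) and Postn (1.81) did. The 10 endothelial markers summed to 598 to 716 and 431 to 578, with Cdh5 at 422 to 569 and 197.5 to 396 without overlap (log2 fold change -0.84, SE 0.27, limma adjusted p = 0.294) and Cldn5 at 0 in 5 of the 6 libraries. The other 3 tested endothelial markers overlapped between groups, with log2 fold changes of 1.26 for Tek, 0.26 for Pecam1 and 0.12 for Egfl7. The 12 colon markers summed to 89.0 to 710 and 94.7 to 171, and the 12 enteric neuron and glia markers to 1090 to 2070 and 1220 to 1510. Without Mock 3 the log2 fold changes of the 7 genes ran from -3.34 to -1.28. Without HIF-1α-KD 3 the log2 fold changes of the 7 genes ran from -3.83 to -1.42, and with all libraries from -3.42 to -1.39. The part of the fibroblast and mural markers in any result was not tested.

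The targeted transcript was lower in each knockdown library. Hif1a had 6914, 5424 and 4945 normalized counts in Mock 1, 2 and 3 and 697, 3142 and 1928 in HIF-1α-KD 1, 2 and 3, that is 12.1%, 54.5% and 33.5% of the Mock mean. The groups did not overlap, but the HIF-1α-KD libraries spread widely, and the log2 fold change of -1.82 (SE 0.46, n = 3 per group) did not pass the limma test after adjustment (adjusted p = 0.219). Car9, the carbonic anhydrase widely used as a hypoxia marker, kept 5.22%, 16.3% and 25.6% of its Mock mean, with a log2 fold change of -2.93 (SE 0.49, limma adjusted p = 0.0553). In bulk RNA, fewer cells that express a gene and less RNA per cell cannot be told apart.

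**Figure D1:**
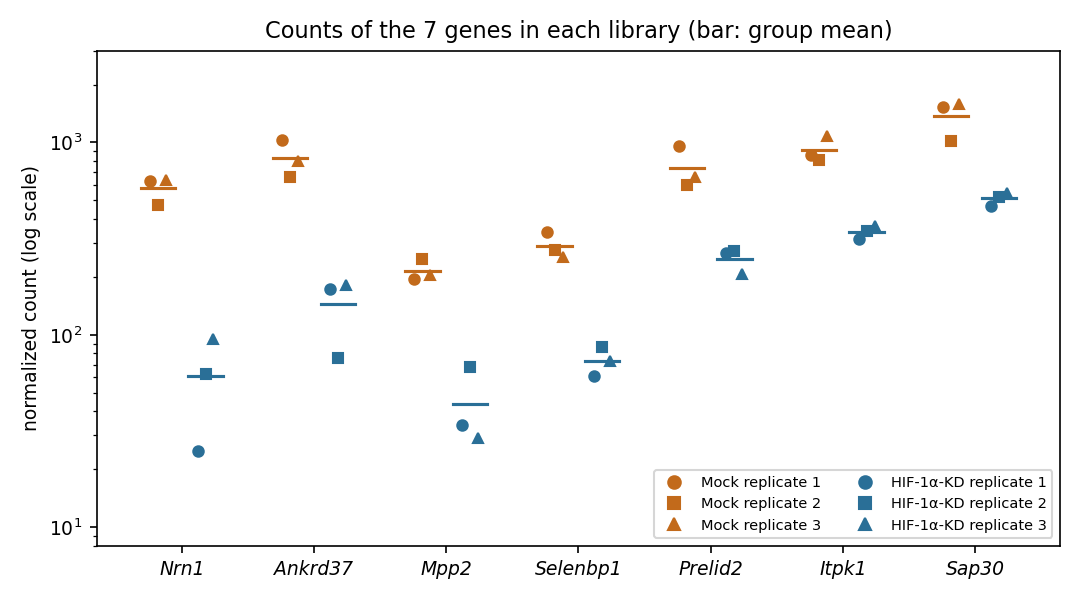
Normalized counts (log axis) of the 7 genes in the 3 Mock (orange) and 3 HIF-1α-KD (blue) libraries; each symbol is a library, its shape the replicate number, and the bar is the mean of the group. In each gene all blue points lie below all orange points, with the widest gap for Nrn1 (lowest Mock library 4.98 times the highest HIF-1α-KD library) and the narrowest for Sap30 (1.85 times).

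The 7 genes differed in how much transcript the knockdown cells kept. Nrn1 kept the least, 10.5% of its Mock mean, followed by Ankrd37 (17.3%), Mpp2 (20.3%), Selenbp1 (25.3%), Prelid2 (33.7%), Sap30 (37.3%) and Itpk1 (37.5%). The median log2 fold change was -1.97 over the 7 genes and 0.02 over all tested genes. Ranked by log2 fold change, Nrn1 stood at place 6 of the 12014 tested genes and Sap30 at place 142, the last of the 7 on this scale. The choice had no numeric limit. Among the 46 genes, Gys1 at -1.41 stood just before Itpk1 at -1.40 and Sap30 at -1.39, and Higd1a at -1.34 and Mxi1 at -1.33 came right after. The HIF-1α-KD library with the least Hif1a, replicate 1, was the lowest in 4 of the 7 genes. Over all tested genes it was the lowest of the HIF-1α-KD libraries in 38.8%. The full Hif1a order within the knockdown, replicate 1 below 3 below 2, recurred in 1 of the 7 genes, Selenbp1, and in 16.8% of all tested genes. Mock 2 was the lowest Mock library in 5 of the 7 genes and in 27.2% of all tested genes.

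**Figure D2:**
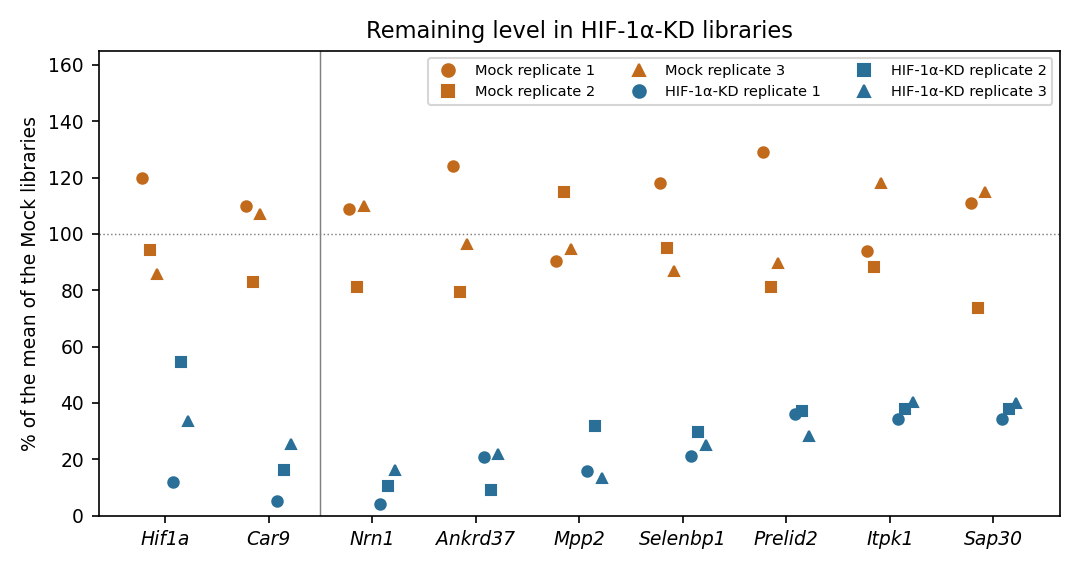
Level of Hif1a, Car9 and the 7 genes in each library as a percentage of the mean of the 3 Mock libraries (dotted line at 100%); symbols and colours as before. HIF-1α-KD 1 had the least Hif1a, at 12.1%, yet Ankrd37 was lowest in HIF-1α-KD 2, at 9.07%, and Mpp2 and Prelid2 in HIF-1α-KD 3, at 13.4% and 28.2%.

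Scaled by transcript length and library size (FPKM), the order of the genes in Mock cells was Sap30 (46.2 ± 9.07 FPKM, SD, n = 3), Ankrd37 (43.6 ± 8.61), Prelid2 (40.5 ± 9.47) and Itpk1 (39.7 ± 5.46), whose libraries overlapped from each gene to the next. Nrn1 (19.9 ± 2.57 FPKM), Selenbp1 (8.97 ± 1.34 FPKM) and Mpp2 (5.26 ± 0.901 FPKM) followed, each without overlap with the gene before it. In HIF-1α-KD cells Sap30 (18 ± 1.79 FPKM), Itpk1 (15.6 ± 1.60 FPKM) and Prelid2 (14.3 ± 1.94 FPKM) overlapped. Ankrd37 (7.85 ± 3.21 FPKM) stood apart from its neighbours on both sides, and Selenbp1 (2.37 ± 0.450 FPKM), Nrn1 (2.19 ± 1.29 FPKM) and Mpp2 (1.11 ± 0.559 FPKM) overlapped at the low end. By their means Ankrd37 moved from place 2 to 4 and Nrn1 from 5 to 6. Ankrd37 overlapped Sap30 and Prelid2 in Mock, and Nrn1 overlapped Selenbp1 under the knockdown, so these places are not firm.

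HIF-1 binds DNA at a core of ACGTG or GCGTG, so the promoter sequences of the 7 genes were read for these letters on both strands. RefSeq promoter windows (GRCm38.p6, 250 bases before to 50 bases after a start site) were given for 5 of the 7 genes, and Nrn1 and Prelid2 had no entry. The 250 bases before the start are printed 5′ to 3′ along the gene, with the cores in capitals (a core on the other strand reads CACGT or CACGC). For Mpp2, the first of its 2 start sites is shown. The windows are chr8:45999851-46000100 (minus strand) for Ankrd37, chr8:57487861-57488110 (minus strand) for Sap30, chr12:102704870-102705119 (minus strand) for Itpk1, chr3:94932833-94933082 (plus strand) for Selenbp1 and chr11:102088516-102088765 (minus strand) for Mpp2.
Ankrd37: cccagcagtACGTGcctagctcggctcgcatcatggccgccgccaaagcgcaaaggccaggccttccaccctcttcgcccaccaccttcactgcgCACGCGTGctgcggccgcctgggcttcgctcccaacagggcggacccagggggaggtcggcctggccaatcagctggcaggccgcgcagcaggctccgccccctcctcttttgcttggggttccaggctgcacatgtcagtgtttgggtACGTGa
Sap30: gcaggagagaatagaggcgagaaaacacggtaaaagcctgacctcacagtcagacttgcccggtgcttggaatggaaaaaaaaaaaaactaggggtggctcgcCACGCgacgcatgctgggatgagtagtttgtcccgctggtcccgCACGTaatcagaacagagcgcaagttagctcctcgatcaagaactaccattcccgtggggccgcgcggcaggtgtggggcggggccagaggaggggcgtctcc
Itpk1: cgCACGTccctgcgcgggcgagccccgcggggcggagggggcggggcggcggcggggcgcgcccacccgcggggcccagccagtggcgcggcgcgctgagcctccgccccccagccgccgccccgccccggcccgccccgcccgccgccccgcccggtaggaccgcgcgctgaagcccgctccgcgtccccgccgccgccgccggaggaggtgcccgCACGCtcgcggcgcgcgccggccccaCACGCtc
Selenbp1: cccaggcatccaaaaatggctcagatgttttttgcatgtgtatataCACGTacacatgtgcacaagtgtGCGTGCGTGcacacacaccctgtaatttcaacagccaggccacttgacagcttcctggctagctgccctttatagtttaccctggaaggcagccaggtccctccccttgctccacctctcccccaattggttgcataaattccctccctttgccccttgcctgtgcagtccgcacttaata
Mpp2: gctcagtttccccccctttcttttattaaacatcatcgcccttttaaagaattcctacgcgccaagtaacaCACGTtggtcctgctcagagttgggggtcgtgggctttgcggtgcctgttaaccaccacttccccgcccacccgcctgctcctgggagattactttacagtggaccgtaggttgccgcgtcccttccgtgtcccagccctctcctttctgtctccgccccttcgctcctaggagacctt
Ankrd37 held 4 cores, at 241, 155, 152 and 6 bases before its start, and the pair at 155 and 152 overlaps on opposite strands. Selenbp1 held 3, of which the pair at 181 and 177 shares a base, Itpk1 held 3 and Sap30 held 2, at 147 and 103 bases. Mpp2 held 1 at its first start and 0 at its second. No core lay within the letters CACGTG, the E-box that many other factors bind. Such letters are common, since either core occurred in 43.8% of all 32851 RefSeq windows of this length and in 61.9% of the 11616 windows of tested genes. At least 3 cores occurred in 8.93% of all windows and 15.9% of those of tested genes. ACGTG occurred in 19.6% of all windows and in 25.2% of those of tested genes, and GCGTG in 32.4% and 50.7%. A match describes the letters and not binding, which was not measured here.

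**Figure D3:**
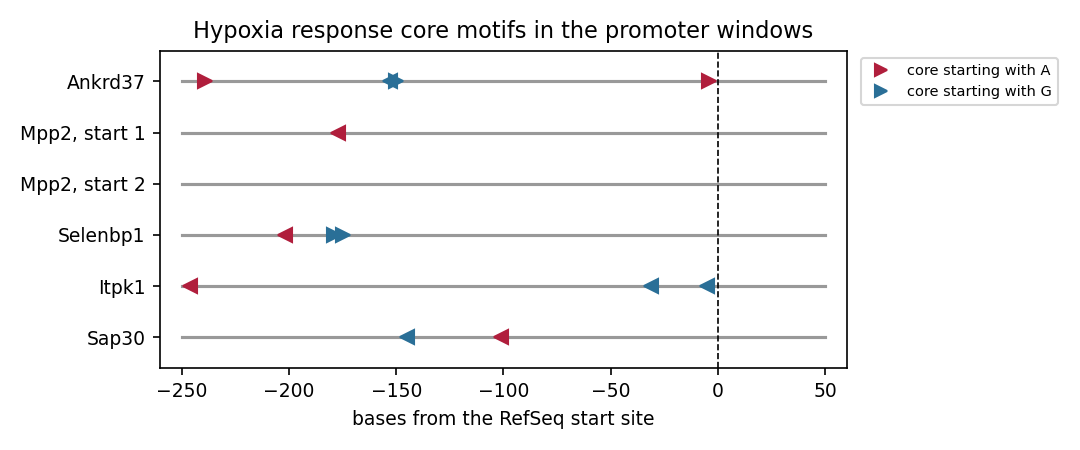
Positions of the cores in the RefSeq promoter windows, in bases from the start site (dashed line), for Ankrd37, both starts of Mpp2, Selenbp1, Itpk1 and Sap30; red marks the core that starts with A, blue the core that starts with G, and the arrowhead gives its strand. All 13 cores lay before the start site, from 248 bases (Itpk1) to 6 bases (Ankrd37) away.

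Sap30 encodes a subunit of the Sin3 corepressor, which brings histone deacetylases to promoters. The gene (ENSMUSG00000031609) lies on the minus strand at 57482707 to 57487860 of chromosome 8 (GRCm38). It had 1525, 1012 and 1578 normalized counts in Mock 1, 2 and 3 and 470, 519 and 548 in HIF-1α-KD 1, 2 and 3. Mock 2 was the lowest of the Mock libraries but still well above all 3 HIF-1α-KD libraries, which lay close together. The mean went from 1372 ± 313 (SD, n = 3) to 512 ± 39.4, a log2 fold change of -1.39 (SE 0.20), and leaving out 1 library at a time gave -1.60 to -1.28. The tested gene most like it over the 6 libraries was Maff, a small transcription factor, with a root mean square difference of 0.124 on the log2 scale after each gene was centred on its mean. Its nearest tested neighbour within 100 kb, Hmgb2, a chromatin protein whose start is 24.0 kb away, had a log2 fold change of -0.31 (SE 0.24, limma adjusted p = 0.62).

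Among 25 other genes of the Sin3 and histone deacetylase complexes and the repressors that recruit them, all tested, 3 were lower and 3 higher at an unadjusted limma p-value under 0.05, against 5.69% lower and 7.04% higher of all tested genes. Their median log2 fold change was -0.01. One gene fell after adjustment over all tested genes. Mxi1, a repressor that pairs with Max, opposes Myc and recruits Sin3, had 1691, 1344 and 1481 normalized counts in the Mock libraries against 704, 544 and 550 in the knockdown ones, which do not overlap. It fell by 1.33 on the log2 scale (SE 0.17, limma adjusted p = 0.0242, lower in 3 of 3 libraries). Its decrease lay between -1.45 and -1.24 under the 13 alternatives, with adjusted p-values from 2.04e-08 to 0.109, and 7 of the 13 stayed under 0.05. The call was lost without Mock 1 (adjusted p = 0.109), Mock 2 (0.0751), Mock 3 (0.0954), HIF-1α-KD 2 (0.099) or HIF-1α-KD 3 (0.0622) and with the replicate block (0.0649). Mnt, another Max partner, had a log2 fold change of -0.72 (SE 0.30, adjusted p = 0.382), and Sap30l, the paralog of Sap30, one of 0.25 (SE 0.22, adjusted p = 0.662). The paralog thus had overlapping groups, at 275 to 371 normalized counts in Mock and 318 to 464 in HIF-1α-KD libraries.

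Itpk1 encodes a kinase that phosphorylates inositol phosphates on the way to inositol hexakisphosphate. The gene (ENSMUSG00000057963) spans 102568582 to 102704930 on the minus strand of chromosome 12. It had 862, 807 and 1080 normalized counts in the Mock libraries against 314.5, 348 and 369.6 in the knockdown ones. It was the steadiest of the 7 genes, with an SD within groups of 0.18 on the log2 scale, under the median of 0.25 over all tested genes. On average it had 916 ± 145 against 344 ± 27.7 (SD, n = 3), a log2 fold change of -1.40 (SE 0.18, -1.49 to -1.28 without 1 library). Over the 6 libraries Sap30 followed it most closely of all tested genes, with a difference of 0.144 by the same measure. Sertad1 came next, at 0.151. Its nearest tested neighbour, Moap1, at 38.7 kb, had a log2 fold change of 0.22 (SE 0.23, limma adjusted p = 0.727).

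Of 47 other genes of inositol phosphate and phosphoinositide metabolism, the inositol trisphosphate receptors Itpr1, Itpr2 and Itpr3 included, 41 were tested. At an unadjusted limma p-value under 0.05, 2 were lower and 6 higher, Itpr2 among them, 0 at an adjusted p-value under 0.05, with a median log2 fold change of 0.20. The lower ones included Inpp4b, a phosphoinositide phosphatase, with 292, 273 and 259.7 normalized counts in the Mock libraries against 121, 169 and 111 in the knockdown ones (log2 fold change -1.06, SE 0.23, adjusted p = 0.161). Inpp5k, another phosphatase, had a log2 fold change of -0.79 (SE 0.25, adjusted p = 0.294). In both the groups did not overlap.

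Selenbp1 encodes a selenium-binding protein that oxidizes methanethiol, a sulfur gas made by gut bacteria and by cells. The gene (ENSMUSG00000068874) lies at 94933056 to 94944758 on the plus strand of chromosome 3. It had 342, 276 and 252.5 normalized counts in the Mock libraries against 61.1, 86.3 and 72.8 in the knockdown ones. The groups were far apart, and the order of its HIF-1α-KD libraries was that of Hif1a. The group means were 290.1 ± 46.6 and 73.4 ± 12.6 (SD, n = 3), a log2 fold change of -1.97 (SE 0.25, -2.09 to -1.85 without 1 library). Of the 100-base stretches of its transcripts, 18.9% also occur in Selenbp2, its near-identical copy, so reads there may have been split or dropped. Selenbp2 had 0 reads in all 6 libraries, a count that allows up to 3 reads in each. Ndufa4l2 (difference 0.176), a mitochondrial protein, and Ero1l (0.187), an oxidase of protein folding, followed it most closely.

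None of the sulfur and selenium genes listed with Selenbp1 passed the limma test after adjustment. Of 21 tested genes of sulfur and methanethiol metabolism 0 were lower and 1 higher at an unadjusted limma p-value under 0.05, with a median log2 fold change of -0.13. The higher one was Mat2a, which makes S-adenosylmethionine, with 2248, 2022 and 2169 normalized counts in the Mock libraries against 2608, 3210 and 3372 in the knockdown ones (log2 fold change 0.51, SE 0.15, adjusted p = 0.261). Gclm, a subunit of the enzyme that starts glutathione synthesis, had -0.49 (SE 0.27, adjusted p = 0.488). Of 25 tested selenium genes 1 was lower and 1 higher, 0 after adjustment, with a median of -0.07. The lower one, Pstk, a kinase needed to make selenocysteine, had a log2 fold change of -0.57 (SE 0.20, adjusted p = 0.32), and Dio2, a deiodinase, had -0.58 (SE 0.48, adjusted p = 0.655). Beside Selenbp1 on the chromosome, Rfx5 at 21.0 kb had -0.13 (SE 0.20, adjusted p = 0.831) and Psmb4 at 46.1 kb on the other side had -0.06 (SE 0.13, adjusted p = 0.878). Pi4kb, beyond Rfx5 at 41.7 kb, had 0.24 (SE 0.14, adjusted p = 0.503), without overlap of the groups.

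Ankrd37 encodes a small protein of ankyrin repeats, modules that bind other proteins. The gene (ENSMUSG00000050914) lies at 45996902 to 46005707 on the minus strand of chromosome 8, and the RefSeq start used for its promoter, 45999850, lies inside this span. Distances to its neighbours were measured from 46005707, where the span begins on the minus strand. It had 1034, 661 and 804.5 normalized counts in the Mock libraries against 174, 75.5 and 182.5 in the knockdown ones. HIF-1α-KD 2, the library with the most Hif1a of its group, had the least Ankrd37. The mean went from 833 ± 188 to 144 ± 59.4 (SD, n = 3), a log2 fold change of -2.60 (SE 0.35, -2.83 to -2.20 without 1 library). It overlaps Ufsp2 and Lrp2bp, both on the other strand. The kit keeps the strand but the counting setting is not given in the sources used here. Lrp2bp shares 10.8% of the 100-base stretches of Ankrd37 and had only 2 to 6 reads per library.

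Ufsp2, the nearest tested neighbour, had 1370 to 2243 reads and a log2 fold change of -0.26 (SE 0.17, limma adjusted p = 0.565). The other one, 1700029J07Rik, with a start 30.5 kb away, had 71.4, 65.1 and 53.1 normalized counts in the Mock libraries against 20.1, 45.6 and 40.4 in the knockdown ones. Its groups did not overlap, but its log2 fold change of -0.89 (SE 0.39) did not pass after adjustment (adjusted p = 0.393). Of 36 tested genes with ankyrin repeats or of the FEM1 ligase, 1 was lower and 3 higher at an unadjusted p-value under 0.05, 0 after adjustment, with a median of 0.17. Ankrd1, a nuclear ankyrin repeat protein, was the lower one, at -1.0 (SE 0.35, adjusted p = 0.313), and Ankrd6, which missed the unadjusted limit, had 1.11 (SE 0.51, adjusted p = 0.41) at under 25 normalized counts in every library. The genes most like Ankrd37 over the 6 libraries were Hmox1 (difference 0.390), a heme-degrading enzyme, and Dhrs3 (0.399), a retinal reductase.

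Mpp2 encodes a membrane-associated guanylate kinase homolog (MAGUK), a scaffold that ties membrane proteins to the cytoskeleton. The gene (ENSMUSG00000017314) spans 102057015 to 102088515 on the minus strand of chromosome 11. It had 194.5, 248 and 204 normalized counts in the Mock libraries against 33.8, 68.3 and 28.9 in the knockdown ones. It was the lowest of the 7 genes in FPKM, and its HIF-1α-KD libraries rest on 42, 57 and 25 reads. On average it had 215.5 ± 28.5 against 43.7 ± 21.5 (SD, n = 3), a log2 fold change of -2.37 (SE 0.35, -2.74 to -2.13 without 1 library). Ndufa4l2 (difference 0.349) and 2610528A11Rik (0.352) followed it most closely.

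The other MAGUK and LIN7 polarity genes gave 0 lower and 2 higher at an unadjusted limma p-value under 0.05 among 21 tested, 0 after adjustment, with a median of 0.01. Mpp1 had a log2 fold change of -0.20 (SE 0.17, adjusted p = 0.655) and Mpp6 one of 0.01 (SE 0.14, adjusted p = 0.989), both at over 1500 normalized counts in every library. Mpp3, with a start 60.1 kb from that of Mpp2, had 0 reads in all 6 libraries, which allows up to 3 reads in each. The largest differences were those of Crb2, a polarity protein, at 2.13 (SE 0.80, adjusted p = 0.344), and Magi1, a junction scaffold, at 1.19 (SE 0.68, adjusted p = 0.506). Crb2 rested largely on HIF-1α-KD 1, with 190 normalized counts against 32.4 and 27.7 in the other two. The nearest tested neighbour of Mpp2, Tmem101 at 67.9 kb, had 0.18 (SE 0.19, adjusted p = 0.728).

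Nrn1 encodes neuritin, a protein held on the outer cell surface by a lipid anchor and known from neurons, where it promotes the growth of neurites. The gene (ENSMUSG00000039114) lies at 36725361 to 36735131 on the minus strand of chromosome 13. It had 630.3, 472 and 639 normalized counts in the Mock libraries against 24.9, 62.4 and 94.7 in the knockdown ones. Of the 7 genes it had the largest SD within groups, 0.70 on the log2 scale over the libraries of both groups. This lay above the 90th percentile of 0.66 over all tested genes. The group means were 580.4 ± 94.1 and 60.7 ± 34.9 (SD, n = 3), a log2 fold change of -3.42 (SE 0.44, -3.83 to -2.89 without 1 library). The gene that followed it most closely was Car9 (difference 0.273), and Bnip3, a mitophagy receptor, came next at 0.554. Its 3′ neighbour Fars2 overlaps it on the other strand and shares 18% of its 100-base stretches, with 292 to 403 reads per library.

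Of 36 other genes of neurites and synapses 16 had enough reads to be tested, with 1 lower and 1 higher at an unadjusted limma p-value under 0.05, 0 after adjustment and a median of 0.00. The lower one was Homer1, a scaffold of synapses, at 542 to 873 normalized counts in Mock and 376 to 417 under the knockdown (log2 fold change -0.70, SE 0.21, adjusted p = 0.275), and the higher one Ncam1. Nrn1l, the paralog, stayed under 5 normalized counts. Negr1, a neuronal adhesion protein that missed the unadjusted limit, had a log2 fold change of -1.58 (SE 0.82, adjusted p = 0.468), and Ncam1, the neural cell adhesion molecule, had 1.03 (SE 0.43, adjusted p = 0.382), with overlapping groups in both. Ncam1 was high in HIF-1α-KD 3, at 1785 normalized counts against 623 and 713 in the other two. Of the enteric neuron and glia markers, Elavl4, Snap25 and Chrna3 had 0 reads in all 6 libraries, and 4 were tested, of which 2 were higher at an unadjusted limma p-value under 0.05. These were Stmn2, at 28.3 to 49.5 normalized counts in Mock and 56.3 to 288 under the knockdown (log2 fold change 1.82, SE 0.55, adjusted p = 0.276), and Uchl1, at 3.62 to 7.66 and 12.9 to 28.8 (1.75, SE 0.56, adjusted p = 0.294). Tubb3, a tubulin of neurons, had 977 to 1960 normalized counts over all libraries.

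Prelid2 encodes a protein with a PRELI domain, the fold of a family that carries phospholipids between the membranes of mitochondria. The gene (ENSMUSG00000056671) lies at 41875600 to 41951242 on the minus strand of chromosome 18. It had 955, 598 and 661 normalized counts in the Mock libraries against 265, 273 and 208 in the knockdown ones. Mock 1 stood above the other two Mock libraries, and the HIF-1α-KD libraries lay close together. The mean went from 738 ± 191 to 249 ± 35.7 (SD, n = 3), a log2 fold change of -1.54 (SE 0.23, -1.68 to -1.34 without 1 library). Fam162a (difference 0.125), a mitochondrial protein, and Pgk1 (0.152), the glycolytic phosphoglycerate kinase, followed it most closely.

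Of 18 tested PRELI family and cardiolipin genes, 1 was lower and 0 were higher at an unadjusted limma p-value under 0.05, 0 after adjustment, with a median of 0.02. The lower one was Prelid1, which carries phosphatidic acid toward cardiolipin synthesis, with 8267, 8970 and 9601 normalized counts in the Mock libraries against 7001, 6217 and 6264 in the knockdown ones. The groups did not overlap, and the log2 fold change was -0.46 (SE 0.13, adjusted p = 0.258). Slmo1 (Prelid3a) had -0.26 (SE 0.32, adjusted p = 0.778), Slmo2 (Prelid3b) had -0.02 (SE 0.13, adjusted p = 0.958), and Pla2g6, a phospholipase, had 0.35 (SE 0.27, adjusted p = 0.626).

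**Figure D4:**
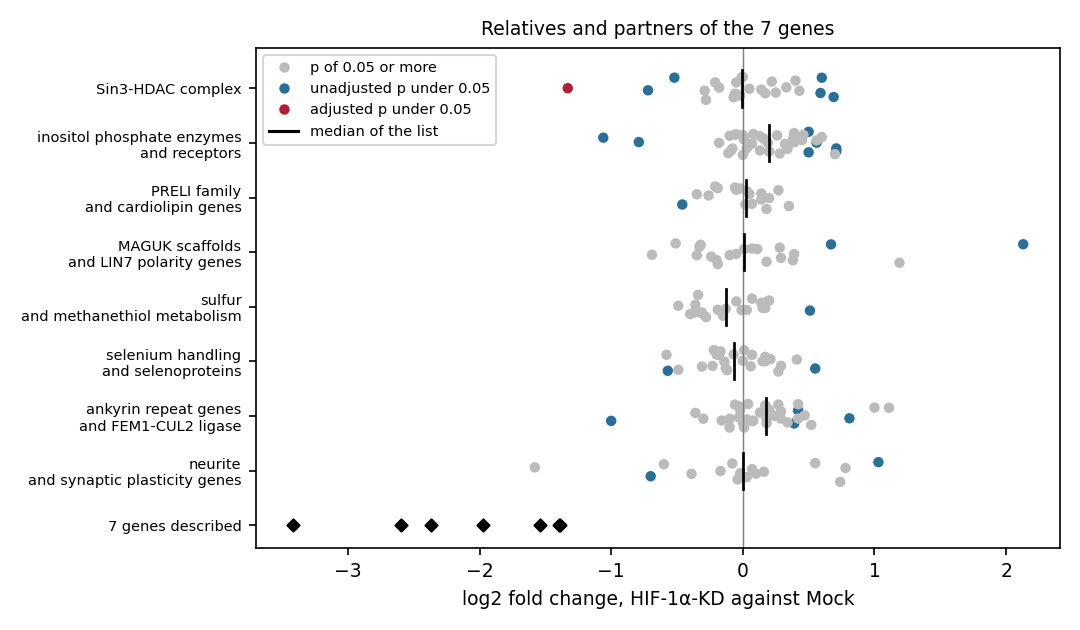
Log2 fold change of HIF-1α-KD against Mock cells for the tested genes of the 8 lists of relatives and partners (circles, coloured by limma p-value, with the median of each list as a black bar) and for the 7 genes (black diamonds, chosen on this contrast). Mxi1, at -1.33 in the Sin3 list, is the 1 circle past an adjusted p-value of 0.05, and the medians of the lists lie between -0.13 and 0.20.

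Over the 8 lists together, 203 genes were tested, of which 9 (4.43%) were lower and 17 (8.37%) higher at an unadjusted limma p-value under 0.05, beside 5.69% and 7.04% of all tested genes. After adjustment 1 was lower, Mxi1, and 0 were higher. The median log2 fold change was 0.05 over the 203 genes. Without Mock 1 the higher ones were 7, and without Mock 3 they were 9. These shares lie near those of all tested genes.

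The 16 tested genes with a start within 100 kb of one of the 7 genes were also compared. They lay beside Ankrd37, Mpp2, Selenbp1, Itpk1 and Sap30, while Nrn1 and Prelid2 had no tested neighbour at this distance. Only 1700029J07Rik beside Ankrd37 was lower at an unadjusted limma p-value under 0.05 and 0 were higher, 0 after adjustment, and the median log2 fold change was 0.06. With the edgeR or DESeq2 test on reads, with the replicate block, or without HIF-1α-KD 1, Mock 1, Mock 2 or Mock 3, the count of lower neighbours was 0.

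**Figure D5:**
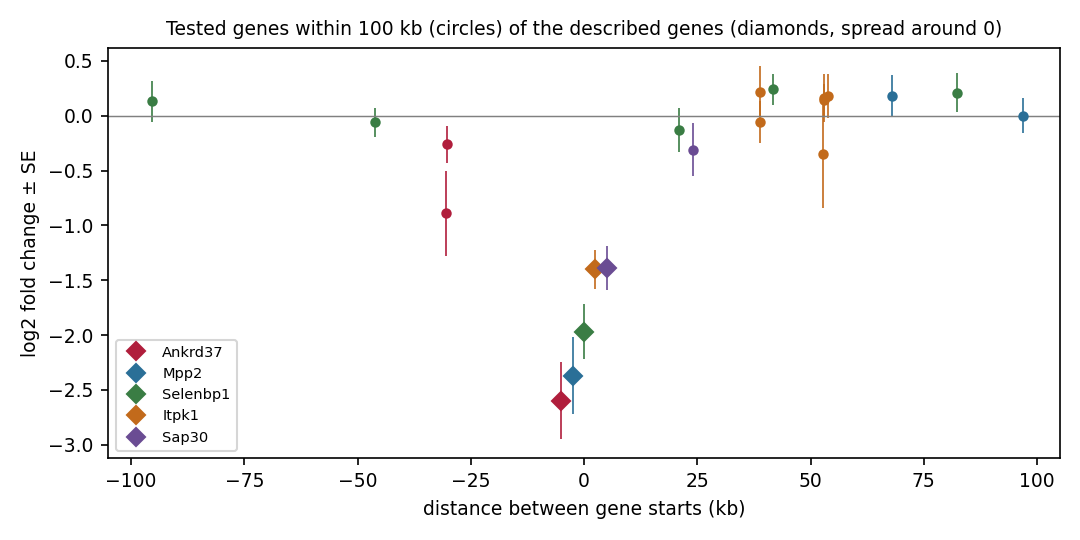
Log2 fold change (± SE) of the 16 tested neighbours (circles) against the distance of their start from that of the described gene (diamonds, spread around 0 kb for sight), in the colour of that gene. The diamonds lie between -2.60 and -1.39, and the circles between -0.89 (1700029J07Rik) and 0.24 (Pi4kb).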

How the data were processed

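The authors aligned reads with STAR and counted them with featureCounts. The submitters' notes name GRCm38 and edgeR, the paper's methods GRCh38 and DESeq2, and the gene identifiers are those of the mouse. The deposited table holds normalized counts, a signal made by dividing each count by 1 factor per library. The authors also deposited FPKM, the GC content as a fraction, and a log2 ratio and p-values of their own comparison, which were not used.

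Reads were recovered from the deposited normalized counts (100% whole up to 300 reads, within 0.02 reads or the printed precision). Genes passed filterByExpr of edgeR 4.0.16 (minimum count of 10). limma 3.58.1 with a trend was run on log2 of the normalized count plus 1, two-sided, adjusted by Benjamini and Hochberg over 12014 genes. A fold change on this scale understates that of low genes. The limma test was also run on simulated counts that gave all genes the same dispersion (spread between libraries). That setting is simpler than these libraries, so the simulation does not vouch for the calls here. Positions and the distances between gene starts came from GENCODE (GRCm38) and promoters from RefSeq. The labels do not say whether the replicate numbers pair the libraries, so the main fit has no pairing and the replicate block is an alternative. Groups came from the labels.

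The 7 genes and all lists were chosen with earlier results of these data known. Named genes are the 7 genes, Hif1a, Car9, close paralogs, the nearest tested neighbours, neighbours with a p-value under 0.05 and the 2 genes most alike. Each of the 8 lists of relatives and partners adds every gene past adjustment and the 2 largest changes. Further ones, such as the genes next in rank, Pi4kb, Homer1, Itpr2 and cell markers, were named after their values were seen. Alternatives covered the test (edgeR, DESeq2 1.42.0), TMM scaling, the filter, the pseudocount (0.1, 10), the replicate block, each library left out, FPKM for the 7 genes, and windows of 50 and 200 kb. R 4.3.3, Python 3.11.15, pandas 2.3.3, numpy 2.4.6 and matplotlib 3.10.9 were used.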

Additional observations from a re-analysis of the deposited data

How the results depend on the processing

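The 7 genes were selected for groups that do not overlap, which fixes the sign of their log2 fold changes under most settings. Of 91 values, 13 settings for each gene, 89 stayed within the replicate spread of the value given. Those of Mpp2 (-1.59) and Selenbp1 (-1.57) were smaller on log2(FPKM + 1), where the pseudocount weighs more on low values. The number of lower genes after adjustment, 46 with limma, was 187 with DESeq2, 0 with the replicate block and 0 to 32 when 1 library was left out, with 0 without Mock 3 or HIF-1α-KD 2, 2 without Mock 1, 8 without HIF-1α-KD 3 and 10 without Mock 2. The number of higher genes, 1 with limma, was 96 with DESeq2, 0 with edgeR, 0 with the replicate block and 0 to 6 when 1 library was left out. Genes at an unadjusted p-value under 0.05 numbered 1529 with limma, 1324 with the block, 1493 with edgeR, 1444 without Mock 3 and 1070 without HIF-1α-KD 2. Partner genes lower at an unadjusted p-value, 9, were 7 to 12 when 1 library was left out, and those higher, 17, were 7 to 23. Lower neighbours, 1, were 0 with DESeq2, edgeR, the replicate block, no filter on low counts or a pseudocount of 0.1, and 0 to 1 when 1 library was left out. The cause of these shifts was not tested. The labels do not say whether the replicate numbers pair the libraries. Libraries of the same number had correlations of their deviations of -0.139, -0.123 and 0.023, and those of different numbers -0.072 to 0.162. With 3 libraries per group these values can neither show nor exclude a pairing. The same counts chose the 7 genes, so their adjusted p-values describe them and do not test them. All 7 stayed under 0.05 with edgeR, DESeq2, TMM scaling, FPKM, no filter on low counts and both pseudocounts. With the block or without Mock 1, Mock 3 or HIF-1α-KD 2, 0 of the 7 did. Without Mock 2 or HIF-1α-KD 3 it was 1, and without HIF-1α-KD 1 it was 5. Mpp2, Nrn1 and Selenbp1 rest on 25 to 82 reads in HIF-1α-KD libraries and Ankrd37 on 63 in HIF-1α-KD 2, which limits their precision.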
